A study of Homo sapiens with 6 samples.

Results

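The SLC25 family holds the carriers, encoded in the nucleus, that move metabolites, nucleotides, cofactors and ions across the inner membrane of mitochondria. Members were chosen by name alone: every row of the deposited gene table whose symbol is SLC25A followed by a number, whatever its values, which gave 48 of 61806 genes. RNA was sequenced from HFF, wild-type fibroblasts of human foreskin held by a cell bank, in 6 libraries that carry the same batch label. All cells were exposed to UVB, the ultraviolet part of sunlight that DNA absorbs, at 40 mJ per cm2. In the UVB group (3 libraries) the cells were then left in vehicle for 48 h. In the UVB + sauchinone group (3 libraries) they had 10 µM sauchinone, a lignan from plants, over the same time. Unirradiated cells were not analysed here, so every comparison is of irradiated cells with the compound against irradiated cells without it. The protocols describe dosing right after irradiation and, for some experiments, also beforehand, and do not say which was used for these libraries. Nothing states that the libraries of a group came from separate cultures, so p-values measure the spread between these libraries, which may be technical.

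Carriers of this family are small proteins made in the cytosol, taken up through the outer membrane and inserted into the inner membrane by the TIM22 complex. Most exchange one substrate for another: the ADP/ATP carriers send ATP out against ADP, the phosphate carrier brings in the phosphate for ATP synthesis, and the aspartate/glutamate carriers form part of the shuttle that passes the electrons of cytosolic NADH to the mitochondrion. Several members differ in tissue range but carry the same substrate, so a fibroblast may hold more than one gene for one transport step. The values here are RNA levels, which say nothing directly of carrier protein or transport.

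Library totals lay between 20984851 and 23076388 counts, and 3 counts, the limit that a count of 0 allows, corresponded to 0.129 to 0.144 CPM (the count scaled to a fixed, TMM-adjusted library size), counting error only. Libraries of one group differed beyond sampling noise (chi-square per degree of freedom of 4.04 to 19.4 over genes), so each was kept as a sample. Fibroblast markers were high in all libraries, with a summed level of 19170 to 20970 CPM in the UVB group and 13530 to 13820 CPM with sauchinone. Of these markers 8 of 9 were lower with the compound (edgeR's quasi-likelihood test, adjusted p under 0.05), where 24.9% of all tested genes were lower. Pericyte and smooth muscle markers summed to 95.5 to 97.0 CPM against 45.8 to 50.1 CPM, with 3 of 4 tested markers lower, beside the same 24.9% of all genes. Keratinocyte markers summed to 10.9 to 11.7 against 12.96 to 13.9 CPM with KRT5 and KRT1 at 0 throughout, melanocyte markers to 1.63 to 2.41 against 1.30 to 1.49 CPM with DCT at 0, leukocyte markers to 3.13 to 4.03 against 3.73 to 4.06 CPM with CD3E at 0, and endothelial markers to 0.397 to 0.674 against 0.362 to 0.728 CPM with CDH5 and KDR at 0. The part of these markers in the carriers' values was not tested, and in bulk RNA fewer cells of a type and less RNA per cell cannot be told apart.

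The SLC25 genes split in direction. Of the 48 members, 41 had enough counts to be tested, and with sauchinone 16 were higher, 8 were lower and 17 did not pass (edgeR's quasi-likelihood test, Benjamini-Hochberg adjusted p under 0.05 over all 15704 genes tested). That is 58.5% of tested members called, where 49.6% of all tested genes were called, 24.7% higher and 24.9% lower, so the share called is near that of genes at large and no result about the carriers. The median log2 fold change of the tested members was 0.14, against 0.01 over all genes, and the median size of the change regardless of sign was 0.29 against 0.36. The CPM ranges of the groups did not overlap for 17 members on the higher side and 8 on the lower side, where 57.1% of all genes showed no overlap, 28.6% on the higher and 28.5% on the lower side. Changes of at least 0.5 on the log2 scale passed for 7 members on the higher side, among them SLC25A25, SLC25A30, SLC25A44, SLC25A45, SLC25A38 and SLC25A15, and for 3 on the lower side, SLC25A12, SLC25A13 and SLC25A26, against a background of 29.8% of all genes called at that size. The standard error of a member's log2 fold change ranged from 0.07 to 0.44 with a median of 0.11.

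**Figure D1:**
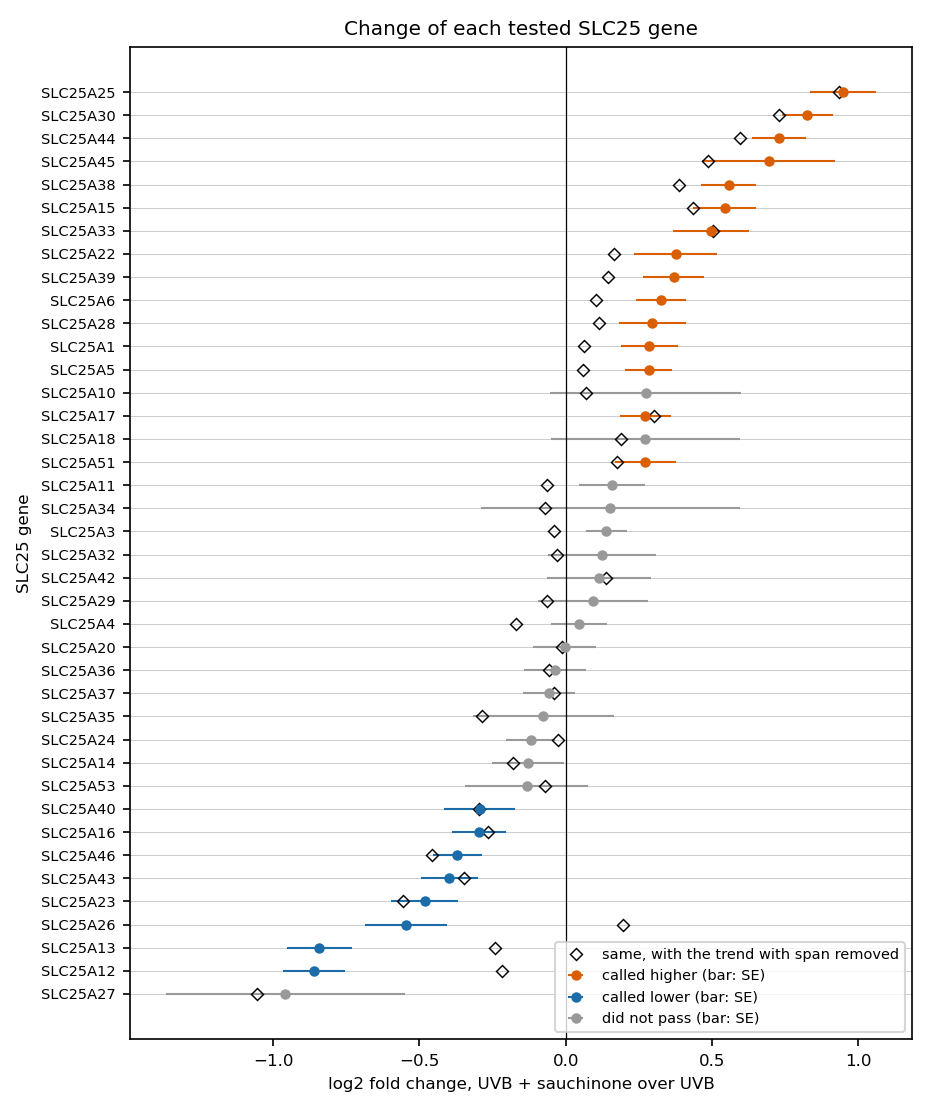
Log2 fold change of 40 tested SLC25 genes, UVB + sauchinone over UVB (horizontal axis), with 1 gene per row; filled circles are edgeR estimates with their SE as bars, coloured by call, and open diamonds are the same genes after a trend of counts with genomic span was removed. The estimates run from −0.96 for SLC25A27, which did not pass, to 0.95 for SLC25A25, and the diamonds of SLC25A12, SLC25A13 and SLC25A26 lie far to the right of their circles.

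The remaining 7 members, SLC25A2, SLC25A21, SLC25A31, SLC25A41, SLC25A47, SLC25A48 and SLC25A52, had fewer than 10 counts over the 6 libraries and were not tested. SLC25A52 had no count in any library. These genes include SLC25A31, the ADP/ATP carrier known from testis, and SLC25A47, known from liver. None exceeded 0.130 CPM in a library, so their counts were at or under what this depth can show. For SLC25A2 depth is not the only limit. All its 1415 bases lie inside TAF7 on the same strand, which held 39350 counts over the 6 libraries. How reads in this overlap were assigned is not given, so the counts of SLC25A2 do not show that it was absent.

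Levels of the tested members, compared per length as FPKM (the count scaled by exonic length and library total), ran from a mean of 0.157 FPKM for SLC25A34 in the UVB group to 96.4 FPKM for SLC25A5 with sauchinone, with 32 members at a mean of at least 1 FPKM, 19 at 5 or more, 10 at 10 or more and 3 at 50 or more. SLC25A5, SLC25A6 and SLC25A3 led, with means over the 6 libraries of 86.5, 75.6 and 59.3 FPKM, and together held 48.7 ± 2.23% of the family's summed FPKM in the UVB group and 51.1 ± 0.705% with sauchinone. The ranges of these 3 genes overlapped one with the next, as did those of most neighbours further down, but the lowest library of SLC25A3, at 51.2 FPKM, lay above the highest of SLC25A1, the fourth gene, at 27.1 FPKM. SLC25A1, the citrate carrier, averaged 22.2 FPKM, followed by SLC25A24 at 16.3, SLC25A20 at 14.98, SLC25A38 at 14.7 and SLC25A46 at 13.95 FPKM. The order at the top depends on the exonic lengths of the deposited table, 8896 bases for SLC25A3, 1555 for SLC25A5 and 1553 for SLC25A6. Without scaling by length SLC25A3 was the highest, with a mean of 503 CPM in the UVB group against 121 CPM for SLC25A5 and 104 CPM for SLC25A6.

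**Figure D2:**
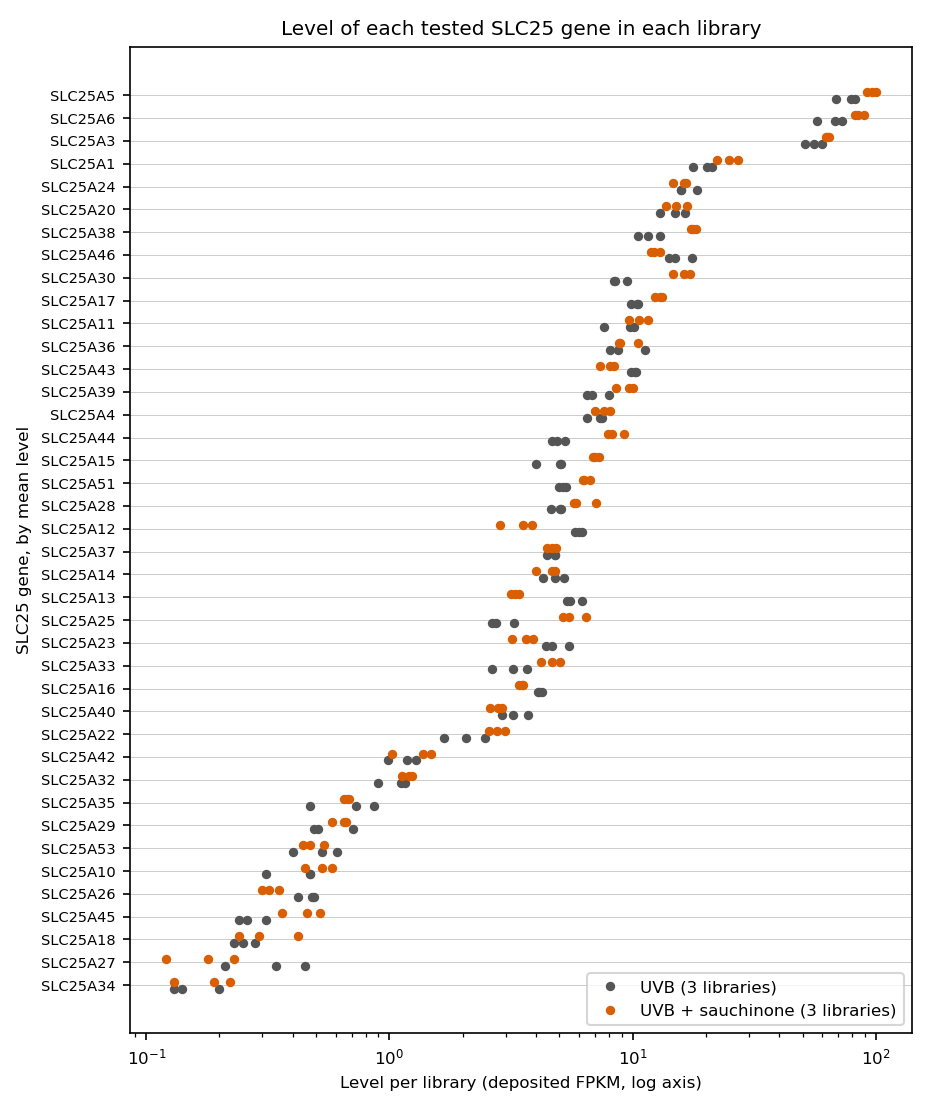
Deposited FPKM (log axis) of 40 tested SLC25 genes in each library, with genes in order of mean level and 1 point per library, grey for UVB and orange for UVB + sauchinone. SLC25A5, SLC25A6 and SLC25A3 stand apart at the top with means of 86.5, 75.6 and 59.3 FPKM, and the order of most other genes is set within overlapping ranges.

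The summed FPKM of the family was 410.5, 425.5 and 383.4 in UVB replicates 1 to 3 and 490.4, 464.3 and 483.1 with sauchinone. The sauchinone libraries were all above the UVB libraries, with means of 479 ± 13.5 against 406 ± 21.3 FPKM (SD, n = 3 each), a ratio of 1.18. The two-sided exact permutation p was 0.1, the smallest that 3 libraries against 3 can give. Rescaled by the TMM factors, the ratio was 1.14, and without SLC25A3, SLC25A5 and SLC25A6 the sums were 235 ± 5.90 against 208 ± 2.07 FPKM.

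Among the ADP/ATP carriers, which exchange matrix ATP for cytosolic ADP, SLC25A5 and SLC25A6 rose and SLC25A4 did not pass. SLC25A5, the carrier typical of dividing cells, was at 79.1, 82.3 and 68.7 FPKM in the UVB libraries and 101, 92.2 and 96.5 FPKM with sauchinone. No UVB library reached the lowest sauchinone library, and the log2 fold change was 0.28 ± 0.08 (SE, adjusted p = 0.00521). SLC25A6, the broadly expressed form, was at 67.7, 72.8 and 57.3 FPKM against 89.5, 82.0 and 84.3 FPKM, again without overlap, and rose by 0.33 ± 0.09 on the log2 scale (adjusted p = 0.00317). SLC25A4, the form of heart and muscle, was at 7.34, 7.47 and 6.47 FPKM against 8.04, 7.01 and 7.62 FPKM, with overlapping groups and a log2 fold change of 0.05 (adjusted p = 0.719). The summed level of these carriers was 150 ± 15.5 FPKM in the UVB group and 189 ± 8.46 FPKM with sauchinone. The share of SLC25A4 in that sum was 4.76%, 4.59% and 4.88% against 4.06%, 3.87% and 4.05%, lower in every sauchinone library (exact permutation p = 0.1, adjusted p = 0.22 over the 11 shares computed), while SLC25A5 held 51.3% and 50.9% on average. SLC25A5 and SLC25A6 are short genes, of 2.98 and 5.96 kb from start to end, and once a trend of counts with genomic span was removed their changes were 0.06 and 0.10, with adjusted p of 0.529 and 0.272. Removal of a trend with GC content left 0.26 for SLC25A5 (adjusted p = 0.00133) and 0.03 for SLC25A6 (adjusted p = 0.691).

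SLC25A3, the carrier that imports phosphate for ATP synthesis, was at 499, 546 and 464 CPM in the UVB libraries and 558, 551 and 550 CPM with sauchinone. The groups did not overlap, though UVB replicate 2 lay close to the sauchinone libraries, and the log2 fold change of 0.14 ± 0.07 did not pass (adjusted p = 0.110). Without UVB replicate 2 it was 0.20 with an adjusted p of 0.0171, and it passed likewise after trends with exonic size (0.26, adjusted p = 0.00508) or GC content (0.25, adjusted p = 0.00179) were removed, whereas removal of the span trend left −0.04.

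The ATP-Mg/phosphate carriers, which load or unload the matrix pool of adenine nucleotides under control of calcium, moved in opposite directions. SLC25A25 (ENSG00000148339, chr9:128068201-128109245, plus strand, coordinates on GRCh38 as in the deposited table) was at 16.3, 19.6 and 15.8 CPM in the UVB libraries and 31.7, 38.02 and 30.2 CPM with sauchinone. All 3 sauchinone libraries exceeded all UVB libraries, and the gene rose 1.93-fold, by 0.95 ± 0.11 on the log2 scale (adjusted p = 4.08e-07). SLC25A23 was at 22.9, 27.4 and 21.8 CPM against 17.4, 15.5 and 18.6 CPM, also without overlap, and fell by 0.48 on the log2 scale (SE 0.12, adjusted p = 0.00133). SLC25A24, the most abundant of the group, was at 107, 109 and 126 CPM against 109, 98.3 and 108 CPM, with overlapping groups and a log2 fold change of −0.12 (adjusted p = 0.240).

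With these changes the group's summed FPKM differed by less than its spread, at 24.4 ± 1.13 in the UVB group and 25.1 ± 0.736 with sauchinone, while its make-up shifted. The share of SLC25A25 was 11.8%, 13.2% and 10.4% in the UVB libraries and 21.3%, 26.5% and 20.4% with sauchinone, and that of SLC25A23 went from 19.9 ± 2.56% to 14.2 ± 1.12%. Neither share overlapped between groups, each with an exact permutation p of 0.1 and an adjusted p of 0.22 over the 11 shares. The changes of SLC25A25 and SLC25A23 passed under each of the 18 alternative settings.

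Promoter windows from RefSeq (GRCh38.p14, 250 bases before to 50 after a start) were given for 40 members, 51 windows in all. The palindrome TGACGTCA, the cAMP response element to which CREB and ATF proteins bind, was added to the search after the values had been seen. It occurred, on either strand, in 1.85% of the 35116 windows of all genes and in 3 member windows, those of SLC25A25, SLC25A33 and SLC25A36, shown here with the element in capitals because SLC25A25 and SLC25A33 rose and SLC25A36 did not pass.
SLC25A25 (chr9:128098281-128098340, plus strand, element 200 bases before a start inside the gene's span): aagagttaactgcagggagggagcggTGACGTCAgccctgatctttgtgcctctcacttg
SLC25A33 (chr1:9539390-9539449, plus strand, element 49 bases before the start): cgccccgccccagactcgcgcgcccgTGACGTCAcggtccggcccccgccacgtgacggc
SLC25A36 (chr3:140941693-140941752, plus strand, element 117 bases before the start): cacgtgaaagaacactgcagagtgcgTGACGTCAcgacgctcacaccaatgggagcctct
A match of letters is a description of these windows and shows no binding. SLC25A25 has several starts in RefSeq, and gene counts do not tell which of them was used.

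**Figure D3:**
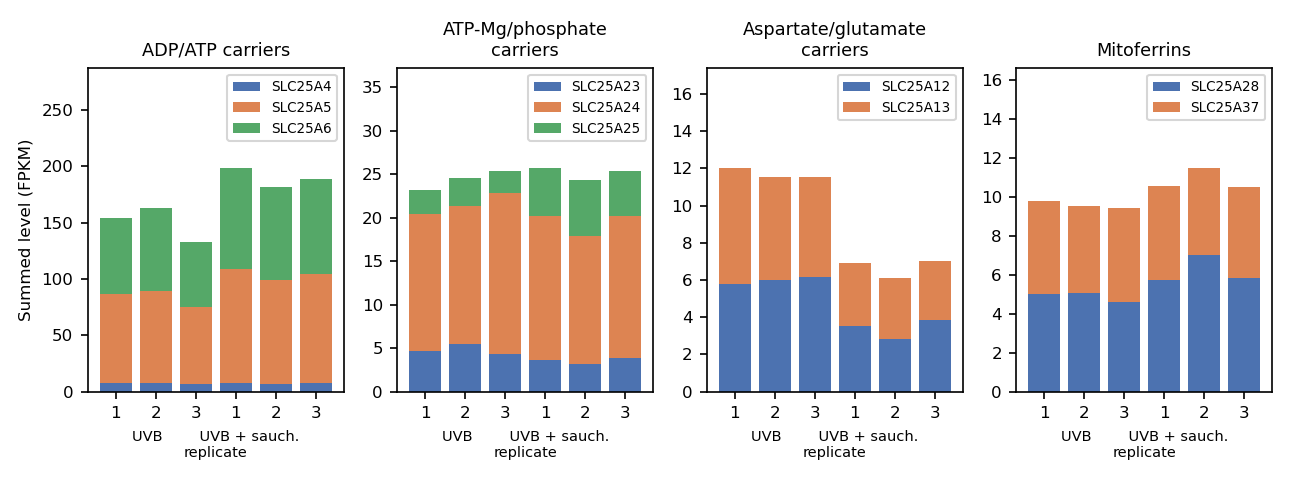
Summed FPKM of 4 groups of SLC25 paralogs in each library (bars from 0, replicates 1 to 3 of UVB on the left and of UVB + sauchinone on the right of each panel), stacked by gene. The ATP-Mg/phosphate carriers keep their sum, at 24.4 and 25.1 FPKM on average, while the SLC25A25 part grows from a mean of 11.8% to 22.7%, and both parts of the aspartate/glutamate carriers are smaller with sauchinone.

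The pair of aspartate/glutamate carriers, which send aspartate out of the matrix as part of the malate-aspartate shuttle, fell together. SLC25A12 (ENSG00000115840, chr2:171783405-171999859, minus strand) was at 35.96, 37.6 and 38.5 CPM in the UVB libraries and 21.2, 17.3 and 23.3 CPM with sauchinone. The groups stood well apart, with a fall of 0.86 on the log2 scale, 1.81-fold (SE 0.11, adjusted p = 6.57e-07). SLC25A13 (ENSG00000004864, chr7:96120220-96322147, minus strand), citrin, the form of liver and many other tissues, was at 23.2, 20.98 and 20.3 CPM against 12.4, 12.1 and 11.5 CPM. Its groups were likewise separate, and it fell by 0.84 on the log2 scale, 1.79-fold (SE 0.11, adjusted p = 1.70e-06). Their summed level went from 11.7 ± 0.269 to 6.69 ± 0.504 FPKM, a ratio of 0.572, and each kept its part of the sum, with SLC25A12 at 51.3 ± 2.60% and 50.8 ± 4.32%.

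Both are long genes, of 216.5 and 201.9 kb in the deposited table, and long genes tended to fall over all tested genes. The deposited span of SLC25A12 reaches to 171999859, while a RefSeq promoter window of this gene lies inside it, near chr2:171894246. The span trend used the deposited spans. After the trend of counts with genomic span was removed, SLC25A12 stood at −0.22 (adjusted p = 0.0745) and SLC25A13 at −0.24 (adjusted p = 0.0830), so neither passed. Both calls held in the other 17 alternatives. Of the enzymes of the same shuttle, 3 were higher and 1 lower of 4, where 24.7% of all tested genes were higher and 24.9% lower. Cytosolic malate dehydrogenase MDH1 fell by 0.33 on the log2 scale (adjusted p = 5.15e-04). GOT1, the cytosolic aspartate aminotransferase, rose by 0.32 (adjusted p = 0.00566), with the mitochondrial forms MDH2 at 0.22 and GOT2 at 0.20. With the span trend removed MDH2 was at 0.09 (adjusted p = 0.377) and GOT2, whose groups overlapped, at 0.12 (adjusted p = 0.214), so neither passed.

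The glutamate carriers SLC25A22 and SLC25A18, which take glutamate into the matrix, were low. SLC25A22 was at 9.63, 11.6 and 7.86 CPM in the UVB libraries and 13.4, 11.8 and 12.6 CPM with sauchinone. The lowest sauchinone library lay just above UVB replicate 2, and the gene rose by 0.38 ± 0.14 on the log2 scale (adjusted p = 0.0325). This call did not hold without UVB replicate 1 (0.37, adjusted p = 0.0778), UVB replicate 3 (0.24, adjusted p = 0.157), UVB + sauchinone replicate 1 (0.33, adjusted p = 0.114) or UVB + sauchinone replicate 3 (0.38, adjusted p = 0.0715), and with the span trend removed (0.17, adjusted p = 0.328). SLC25A18 was at 1.11, 1.204 and 1.37 CPM against 1.13, 1.99 and 1.33 CPM, with overlapping groups (adjusted p = 0.513).

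Carriers of other amino acids included some of the larger rises. SLC25A15 (ENSG00000102743, chr13:40789412-40812460, plus strand), the ornithine carrier that links cytosol and matrix in the urea cycle and in polyamine and proline supply, was at 21.5, 21.5 and 16.99 CPM in the UVB libraries and 28.8, 30.2 and 28.3 CPM with sauchinone. The sauchinone libraries lay close together above all UVB libraries, and the gene rose by 0.54 ± 0.11 on the log2 scale, 1.46-fold (adjusted p = 2.22e-04). Its paralog SLC25A2 had at most 0.0883 CPM in a library, under the limit that a count of 0 allows. Of 6 tested enzymes of proline and ornithine metabolism, 2 were higher and none lower, a called share of 33.3% where that of all genes was 49.6%. ODC1, which makes putrescine from ornithine, rose by 1.01 ± 0.08 (adjusted p = 1.18e-09), and OAT, ornithine aminotransferase, rose by 0.48 ± 0.07 (adjusted p = 9.20e-06).

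SLC25A38 (ENSG00000144659, chr3:39383370-39397351, plus strand), which supplies matrix glycine for the first step of haem synthesis, was at 34.998, 31.6 and 28.5 CPM against 47.4, 46.1 and 46.4 CPM. All sauchinone libraries were above all UVB libraries, and it rose by 0.56 ± 0.09 on the log2 scale, 1.47-fold (adjusted p = 3.64e-05). In the list of haem and iron-sulphur genes, 5 of 12 were higher and 1 lower; their called share of 50% is close to that of all genes. ALAS1, the enzyme that uses this glycine and sets the rate of haem synthesis, had the smallest p and rose by 1.04 ± 0.09 (adjusted p = 1.18e-09), from 59.0 ± 5.62 to 121 ± 4.35 CPM, and ISCA1, an iron-sulphur assembly factor, rose by 0.52 ± 0.08 (adjusted p = 1.05e-05).

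SLC25A44 (ENSG00000160785, chr1:156193932-156212796, plus strand), a carrier of branched-chain amino acids known from brown fat, was at 35.96, 39.4 and 34.8 CPM in the UVB libraries and 58.7, 66.7 and 56.8 CPM with sauchinone. The groups were far apart, and the gene rose by 0.73 ± 0.09 on the log2 scale, 1.66-fold (adjusted p = 8.48e-07). The rises of SLC25A15, SLC25A38 and SLC25A44 passed under every alternative run. SLC25A29, a carrier of basic amino acids, was at 4.33 ± 0.882 and 4.61 ± 0.294 CPM and did not pass.

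**Figure D4:**
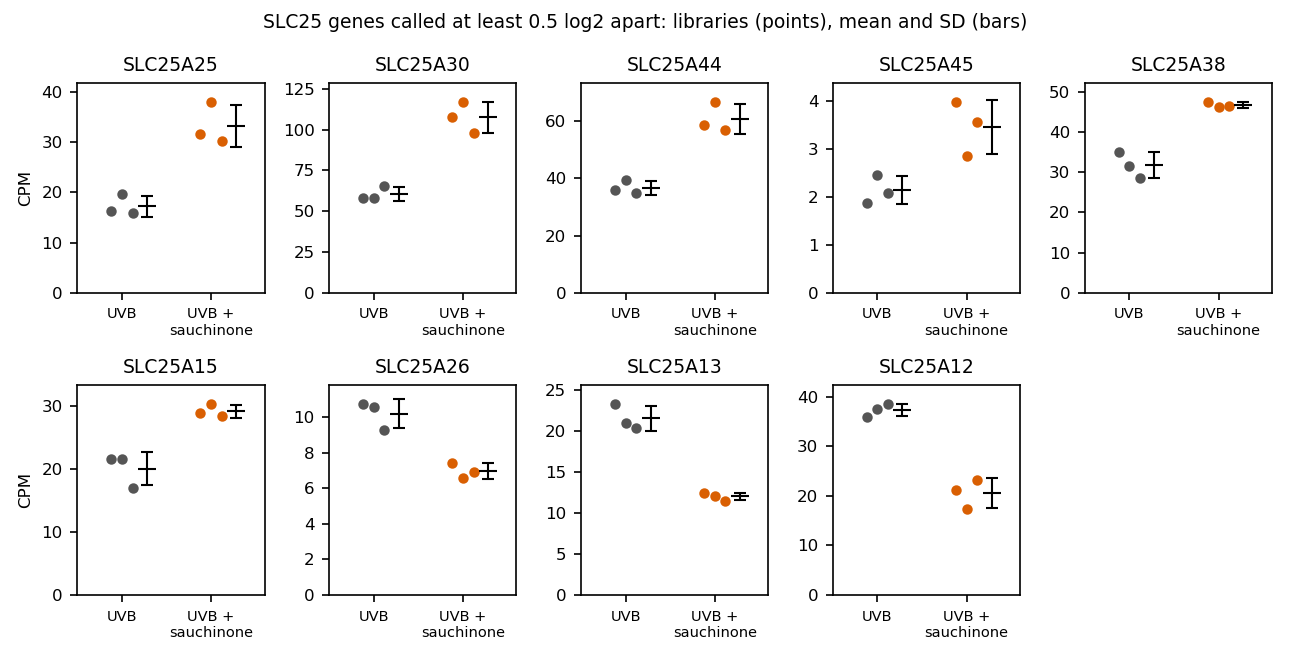
CPM (vertical axes from 0) of 9 SLC25 genes with an adjusted p under 0.05 and a log2 fold change of at least 0.5 in size, with 1 panel per gene, 1 point per library and the mean ± SD beside the points. In all 9 panels the UVB and UVB + sauchinone points do not overlap, as in SLC25A12, where the UVB libraries lie between 35.96 and 38.5 CPM and the sauchinone libraries between 17.3 and 23.3 CPM.

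Of the carriers of di- and tricarboxylates, SLC25A1 passed and SLC25A10 and SLC25A11 did not. SLC25A1, which exports citrate for lipid synthesis, was at 40.8, 43.3 and 36.1 CPM against 48.9, 44.2 and 53.3 CPM. The lowest sauchinone library lay just above the highest UVB library, and the log2 fold change was 0.29 ± 0.10 (adjusted p = 0.0176). The call was lost without UVB replicate 3 (adjusted p = 0.0529), UVB + sauchinone replicate 1 (adjusted p = 0.0541) or UVB + sauchinone replicate 3 (adjusted p = 0.117), and the estimate was 0.06 with the span trend removed and −0.02 with the GC trend removed. SLC25A11, the 2-oxoglutarate carrier and the other carrier of the malate-aspartate shuttle, was at 23.1 ± 3.39 and 25.8 ± 2.09 CPM (log2 fold change 0.16 ± 0.11, adjusted p = 0.260). SLC25A20, which exchanges acylcarnitine for carnitine, had the log2 fold change nearest to 0 among the tested members, at 28.5 ± 3.47 and 28.4 ± 2.62 CPM. None of the 4 tested enzymes of the carnitine shuttle was called either, where 49.6% of all genes were.

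The calls of the iron and glutathione carriers differed within each pair. SLC25A28, the broadly expressed mitoferrin that brings iron into the matrix, was at 17.3, 17.7 and 16.1 CPM in the UVB libraries and 19.1, 24.0 and 19.6 CPM with sauchinone. The groups did not overlap and the log2 fold change was 0.30 ± 0.11 (adjusted p = 0.0358). The call was lost without UVB replicate 1 (0.30, adjusted p = 0.0799), UVB replicate 3 (0.25, adjusted p = 0.0783) or UVB + sauchinone replicate 2, the highest library (0.18, adjusted p = 0.231), and with the span trend removed (0.11, adjusted p = 0.424). It did not hold in 10 of the 18 alternatives, DESeq2 among them. SLC25A37, the mitoferrin of red cell precursors, was at 38.8, 36.4 and 39.1 CPM against 37.9, 35.3 and 36.7 CPM, with overlapping groups and a log2 fold change of −0.06 (adjusted p = 0.634). The share of SLC25A28 in their summed FPKM was 51.2 ± 2.13% and 57.1 ± 3.82%, without overlap (exact permutation p = 0.1, adjusted p = 0.22 over the 11 shares).

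SLC25A39, which imports glutathione, was at 24.2, 28.7 and 23.3 CPM against 34.7, 30.03 and 33.6 CPM. Every sauchinone library was above every UVB library, and it rose by 0.37 ± 0.10 on the log2 scale (adjusted p = 0.00518). SLC25A40, its close relative with the same substrate, was at 16.6, 15.1 and 19.2 CPM against 13.9, 14.7 and 12.9 CPM, and its log2 fold change of −0.29 ± 0.12 passed by little (adjusted p = 0.0482). This call did not hold without UVB replicate 1, without UVB replicate 3 and without any of the 3 UVB + sauchinone libraries (adjusted p from 0.0508 to 0.193), and under DESeq2 (adjusted p = 0.0914) and limma-voom (adjusted p = 0.0544). With the GC trend removed the estimate for SLC25A40 was −0.00916 (adjusted p = 0.947). SLC25A39 made up 68.2 ± 4.93% of their summed FPKM in the UVB group and 77.3 ± 2.34% with sauchinone. These shares again did not overlap (exact permutation p = 0.1, adjusted p = 0.22 over the 11 shares). With the span trend removed SLC25A39, a gene of 5.25 kb, stood at 0.14 and did not pass (adjusted p = 0.237), nor did it with the GC trend removed (0.15, adjusted p = 0.134).

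The carriers of cofactors and nucleotides held 4 genes that rose, 2 that fell and 3 that did not pass, of 9 tested. Over all tested genes 24.7% were higher and 24.9% lower. SLC25A33, a carrier of pyrimidine nucleotides needed for mitochondrial DNA and RNA, was at 12.5, 14.6 and 10.4 CPM against 17.6, 16.1 and 19.025 CPM. It showed no overlap and rose by 0.49 ± 0.13 on the log2 scale (adjusted p = 0.00294), also in every alternative. Its paralog SLC25A36 was at 91.1, 85.1 and 118 CPM against 88.6, 108 and 90.3 CPM, with UVB replicate 3 the highest library and a log2 fold change of −0.04 (adjusted p = 0.797). With the GC trend removed SLC25A36 stood at 0.21 and passed (adjusted p = 0.0144). SLC25A33 made up 25.8 ± 6.28% and 33.1 ± 4.01% of their summed FPKM, with overlapping groups.

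SLC25A17, the carrier of coenzyme A and related nucleotides in the peroxisome, rose by 0.27 ± 0.09 on the log2 scale (adjusted p = 0.0114), from 41.6 ± 1.251 to 50.3 ± 1.98 CPM. SLC25A51, the mammalian carrier of NAD, passed by little at 0.27 ± 0.10 (adjusted p = 0.0337), and its call was lost on leaving out any 1 of the 6 libraries (adjusted p from 0.0526 to 0.110) and under DESeq2 (adjusted p = 0.0592). SLC25A16, tied to coenzyme A in the matrix, fell by 0.29 ± 0.09 (adjusted p = 0.0107), and its call was lost without UVB + sauchinone replicate 1 (adjusted p = 0.0602), with the GC trend removed (−0.13, adjusted p = 0.186) and with the exonic size trend removed (−0.21, adjusted p = 0.0570).

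SLC25A26 (ENSG00000144741, chr3:66133610-66388116, plus strand), which imports S-adenosylmethionine, the methyl donor, was at 10.7, 10.6 and 9.27 CPM in the UVB libraries and 7.46, 6.57 and 6.94 CPM with sauchinone. The groups did not overlap, with a log2 fold change of −0.55 ± 0.14 (adjusted p = 0.00246). At 254.5 kb it is the longest tested member, and with the span trend removed its estimate changed sign to 0.19 (adjusted p = 0.276), while removal of a trend with exonic size left −0.15 (adjusted p = 0.424). SLC25A32 and SLC25A42, carriers of FAD or folate and of coenzyme A, did not pass.

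The carriers related to uncoupling proteins included 1 of the larger rises of the family. SLC25A30 (ENSG00000174032, chr13:45393316-45418455, minus strand), first described in kidney, was at 58.2, 58.3 and 65.5 CPM in the UVB libraries and 108, 117 and 97.7 CPM with sauchinone. The groups were far apart, and it rose 1.77-fold, by 0.83 ± 0.09 on the log2 scale (adjusted p = 6.18e-08), the smallest adjusted p of the family. Its estimate stayed between 0.73 and 1.00 over the 18 alternatives. SLC25A27, a carrier known from brain, was at 1.49, 0.695 and 1.1475 CPM against 0.588, 0.389 and 0.728 CPM, with overlapping groups, 9 to 31 counts per library and a log2 fold change of −0.96 ± 0.41 that did not pass (adjusted p = 0.0569). It passed without UVB replicate 2, the lowest UVB library (−1.21, adjusted p = 0.0223), and with the span trend (−1.05, adjusted p = 0.0389) or the exonic size trend (−1.06, adjusted p = 0.0359) removed. SLC25A14 was at 14.5 ± 1.39 and 13.3 ± 1.14 CPM and did not pass.

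SLC25A46, which sits in the outer membrane and takes part in mitochondrial fission and lipid transfer, fell by 0.37 ± 0.08 on the log2 scale (adjusted p = 8.77e-04), from 131 ± 14.8 to 101 ± 3.86 CPM. It is the most AT-rich of the tested members, with a GC content of 32.1%, and with the GC trend removed its estimate was −0.07 (adjusted p = 0.389). Among the members whose substrate was not assigned here, SLC25A43 fell by 0.40 ± 0.10 (adjusted p = 0.00178), and SLC25A45 (ENSG00000162241, chr11:65375192-65383701, minus strand), at 1.88, 2.45 and 2.07 CPM against 3.98, 2.85 and 3.56 CPM, rose by 0.69 ± 0.23 (adjusted p = 0.0143). The call of SLC25A45, on 39 to 88 counts per library, was lost without UVB replicate 1 (adjusted p = 0.0613), UVB + sauchinone replicate 1 (adjusted p = 0.0704) or the span trend (0.49, adjusted p = 0.0825). SLC25A34, SLC25A35 and SLC25A53 were all under 5 CPM and did not pass.

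Longer genes tended to have lower log2 fold changes, among the members and over all genes. Over the 41 tested members the Spearman correlation of the log2 fold change with genomic span, the distance from a gene's start to its end, was −0.536, and over all 15704 genes it was −0.385, a description across genes that share these libraries. With all genes sorted by span into 5 equal groups, the longest group (88.7 to 2242 kb) had 58.5% of its genes lower and 7.99% higher, and the 3 members there, SLC25A12, SLC25A13 and SLC25A26, were all lower. In the 2 shortest groups, up to 18.9 kb, 10 of 18 members were higher and none was lower, where 29.4% and 35.5% of all genes in these groups were higher and 8.12% and 11.8% were lower. The correlation with GC content was 0.432 over the members and 0.321 over 15415 genes.

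With the span trend removed, 8 members were higher and 6 lower, the median of the members was −0.01, and 13 of the 24 calls remained, among them SLC25A25, SLC25A30, SLC25A44, SLC25A38, SLC25A15, SLC25A33 and SLC25A17 on the higher side and SLC25A23, SLC25A43, SLC25A46, SLC25A16 and SLC25A40 on the lower. With the GC trend removed, 14 of the 24 remained, and SLC25A46, SLC25A16, SLC25A40, SLC25A51, SLC25A1, SLC25A28, SLC25A6, SLC25A39, SLC25A22 and SLC25A45 no longer passed. Removal of the exonic size trend ended the calls of SLC25A26, SLC25A16, SLC25A51, SLC25A5, SLC25A1, SLC25A28 and SLC25A22. The part of span and GC content in the members' changes was not tested beyond these values.

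**Figure D5:**
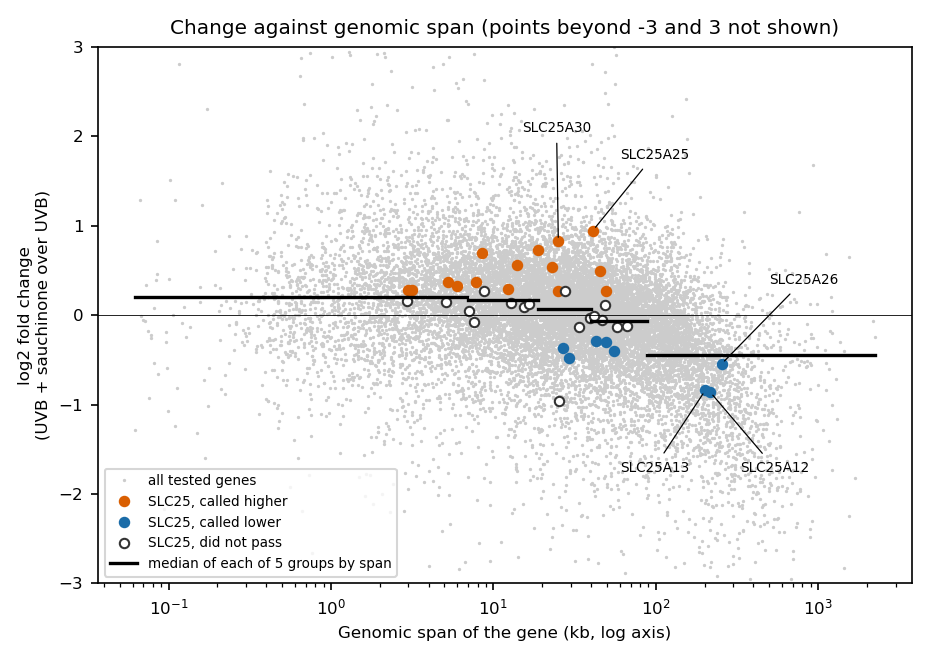
Log2 fold change, UVB + sauchinone over UVB, against genomic span in kb (log axis) for all 15704 tested genes (grey points) and 40 tested SLC25 genes (circles by call), with the median of each of 5 equal groups of genes by span as black bars. These medians go from 0.20 for the shortest to −0.44 for the longest genes; SLC25A12, SLC25A13 and SLC25A26 lie in the longest group, and SLC25A25 and SLC25A30 lie above the medians of theirs.

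The genes that serve the carriers were mixed as well. Of all tested genes 49.6% were called, 24.7% higher and 24.9% lower. The called share was 53.3% for the import genes and 52.9% for the other transporters below, near that of all genes. In the machinery that imports and inserts carriers, 6 of 15 tested genes were higher and 2 lower: TOMM70, the outer membrane receptor for carriers, rose by 0.49 ± 0.07 on the log2 scale (adjusted p = 7.00e-06), and TIMM9, a chaperone of the intermembrane space, fell by 0.81 (SE 0.13, adjusted p = 1.97e-05). Of the related genes under other symbols, MTCH1 rose by 0.41 (adjusted p = 1.84e-04) and MTCH2 fell by 0.30 (adjusted p = 0.00283, or 0.0558 with the GC trend removed). UCP2 and UCP3 did not pass. Other transporters of both membranes gave 3 higher and 6 lower of 17, among them MICU2, which takes part in gating calcium uptake, with a fall of 0.81 on the log2 scale (adjusted p = 3.58e-07). MICU2 stood at −0.55 with the span trend removed (adjusted p = 2.12e-05).

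Genes of mitochondrial fission and fusion gave 3 higher and 3 lower of 8, with MIEF1, a receptor of the fission machinery, with a rise of 0.73 (adjusted p = 1.67e-07) and OPA1, which fuses inner membranes, with a fall of 0.54 (adjusted p = 1.23e-04). Of 6 tested regulators of mitochondrial biogenesis, TFAM rose by 0.54 (adjusted p = 3.14e-04) and ESRRA by 0.45 (adjusted p = 0.00448, or 0.0874 with the span trend removed and 0.235 with the GC trend removed), and none was lower. The factors tied to single carriers by prior knowledge gave 4 higher and 1 lower of 5, with MYC at 0.57 (adjusted p = 1.14e-05) and ATF4 at 0.49 (adjusted p = 5.42e-05). The counts of these short lists stand beside 24.7% of all tested genes higher and 24.9% lower.

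The motifs searched besides this element differed in how their share of member windows stood to that of all windows. CCAAT, the NFY box, was in 23 of 51 member windows (45.1%, against 34.6% of all). It was in 11 of the 21 windows of members that rose and in 2 of the 9 of members that fell. SLC25A25 and SLC25A6 each count more than once among the 23 and the 11, SLC25A6 with the same bases on X and Y. The motif of nuclear respiratory factor 1 was in 9 of 51 (17.6%, against 8.32% of all) but in 1 of the 21 windows of members that rose and 1 of the 9 of members that fell. TATAAA was in 4 of 51 (7.84%, against 11.5%), where the same site of SLC25A26 counts more than once through overlapping windows. TGATGNAA, the amino acid response element of ATF4, was in 1 of 51 member windows (1.96%, against 3.62% of all) and in none of the 21 windows of members that rose. TGACNNNGC, the core of the antioxidant response element of NRF2, was in 9 of 51 member windows (17.6%, against 13.3% of all). Of the windows of members that rose, 6 of 21 held it (28.6%), and of those of members that fell, 2 of 9 (22.2%). Windows of SLC25A13 and SLC25A46, which fell, and of SLC25A24, which did not pass, held it too. The match is shown in capitals for SLC25A39 and SLC25A25, members that rose and have known roles in glutathione and adenine nucleotide transport.
SLC25A39 (chr17:44324936-44324996, minus strand, match on the opposite strand of the window): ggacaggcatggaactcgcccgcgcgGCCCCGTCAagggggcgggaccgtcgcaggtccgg
SLC25A25 (chr9:128067997-128068057, plus strand): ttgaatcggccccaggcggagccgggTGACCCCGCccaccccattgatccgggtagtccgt
Neither match says whether a factor binds there. The median GC content of member windows was 66.0%, against 58.7% for all windows, and whether it plays a part in these shares was not tested.

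Whether reads were counted by strand is not given in the sources used here, so values of genes that overlap on opposite strands are uncertain. Among the called members, 7 overlap a gene on the opposite strand that holds at least 10% of their own counts. SLC25A12 shares 61239 bases of span with HAT1 (log2 fold change −0.32), which held 8233 counts over the 6 libraries against 3843 for SLC25A12. SLC25A30 shares 24660 bases with TPT1-AS1 (−0.29), and SLC25A26 overlaps LRIG1 (−0.45). The overlaps of SLC25A25 with NAIF1 (6 bases, 0.49), of SLC25A40 with DBF4 (145 bases) and of SLC25A51 with TMX2P1 (708 bases) were short, though DBF4 held 1977 counts against 2056 for SLC25A40. Processed pseudogenes can draw reads from their parents. The 9 pseudogenes of SLC25A5 held 9 counts against 18002 for the parent, and the 6 of SLC25A6 held 2 counts against 15707. The largest share was 3.74%, for SLC25A53. As the counter is not given, these counts cannot tell whether reads that match parent and pseudogene alike were left out. SLC25A6 also lies on Y, and how reads of its X and Y copies were counted is not given.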

How the data were processed

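RNA sequencing gave 1 table for the 6 libraries of irradiated HFF cells. The authors deposited whole-number counts per gene and library, which are not normalised, and FPKM values, which were the same counts scaled to exonic length and library total (100% of values within 0.006). The build was GRCh38 per the submitters' processing notes. No aligner, counter, annotation release or use of strand is given in the sources used here. The labels' protocols name poly(A) selection or removal of ribosomal RNA, strand-specific paired-end libraries, and do not say which enrichment was used. Columns were matched to libraries by the names in the labels, 3 libraries a group, and no column was left out.

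The test was that of edgeR 4.0.16 in R 4.3.3 (filterByExpr, TMM, quasi-likelihood test, two-sided, no covariates, Benjamini-Hochberg over 15704 genes, threshold 0.05). Log2 fold changes are UVB + sauchinone minus UVB, with the SE taken from the F statistic. CPM was computed from the deposited counts with TMM-adjusted library sizes. FPKM served to compare levels between genes and to sum paralogs, with an exact permutation test over libraries. Trends with genomic span, exonic size or GC content (GENCODE release 29 transcripts, a value for 98.2% of tested genes) were removed by per-library loess offsets with a span of 0.3, the GC version being added after the data were seen. Other alternatives were DESeq2 1.42.0, limma-voom (limma 3.58.1), other normalizations and filters, a minimum fold of 1.2, the replicate number as a block, and each library left out. Promoter windows are those of RefSeq on GRCh38.p14.

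Tested on simulated data with 200 of 15704 genes changed, over 10 simulations of this comparison, the test found 21.2% of 1.25-fold changes (106 of 500), 61.2% at 1.5-fold (306), 78.2% at 2-fold (391) and 95.2% at 4-fold (476), with 6.09% false calls (83 of 1362). Changes near 1.25-fold were mostly missed in these simulations. Far fewer genes were changed in them than the 7786 called in the data, so these shares do not carry over to the data. In the data changes of that size could pass, as that of SLC25A6 did at 1.25-fold.

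The members, lists and tests were chosen with earlier results of these data known. Some genes covered by this rule are not reported here, nor drawn, though counts and sums include them. Values per library are given for members called with a log2 fold change of at least 0.5 in size, for the 4 highest in FPKM and for paralog groups. From each other list the 2 genes with the smallest p are named. SLC25A27, SLC25A3 and others outside that rule are given in more detail where a setting changes their call.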

Additional observations from a re-analysis of the deposited data

How the results depend on the processing

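Over the 18 alternatives, 8 of the 24 calls passed in each (among them SLC25A23, SLC25A33, SLC25A15, SLC25A38, SLC25A44, SLC25A30 and SLC25A25), and 17 passed with each of the 6 libraries left out. A test against a minimum fold of 1.2 gave 8 members higher, 4 lower and 2357 genes higher over the whole table. Removal of the span trend gave 8 members higher, and removal of the GC trend, added after the data were seen, gave 5 lower. The span trend turned SLC25A26 to 0.19, and the GC trend turned SLC25A36 to 0.21 and SLC25A1 to −0.02145. Leaving out 1 library gave 12 to 16 members higher and 6 to 9 lower. With total counts as the only scaling the median of all genes moved to 0.05, and 54.8% of called genes were higher in place of 49.7%. Replicate numbers did not pair the libraries: the deviations of same-numbered libraries correlated at 0.00716, −0.0776 and −0.031, and the replicate block gave 14 members higher and 7 lower, with 3603 and 3677 genes over the whole table, losing SLC25A40, SLC25A51 and SLC25A28. DESeq2 gave 13 and 7 and limma-voom 16 and 7. Members under about 10 CPM had the largest errors, and SLC25A34 and SLC25A27 could not be tested under the filter of 1 CPM in 3 libraries.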
